A study of Homo sapiens with 22 samples.

Results

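The mRNAs of 10 decapping and 5′ decay factors (DCP2, DCP1A, DCP1B, EDC3, EDC4, DDX6, PATL1, LSM1, LSM14A and XRN1) were followed through a bromouridine (BrU) pulse-chase in HEK293T cells, a human embryonic kidney line. They were chosen by gene symbol, as 10 of the 61156 genes in the files, and each was represented by the protein-coding transcript with the highest mean count over the 0-10 h libraries. One arm expressed a short hairpin RNA (shRNA) as control (shControl) and the other an shRNA directed at ZNF598 (shZNF598), a ubiquitin ligase that senses ribosome collisions. All groups had 150 µM BrU in the medium during 24 h of labelling and were then chased without it for 0, 2, 4, 6 or 10 h, in 2 libraries per hairpin and time, or for 24 h, in 1 library per hairpin. RNA that held the label was pulled down with an antibody to BrdU and sequenced (BRIC-Seq). A level here is thus relative to the other pulled-down RNA of its library, not an absolute amount of RNA still present. The design has 1 cell line and 1 control arm, and the labels name 1 hairpin group per arm without giving the number of hairpins or clones. Nothing in the labels says that replicates were separate cultures, so p-values measure only the spread between these samples. For slopes, that spread also holds any departure of a time course from a straight line.

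Decapping commits an mRNA to degradation from its 5′ end. DCP2 is the catalytic subunit that removes the cap, DCP1A and DCP1B are alternative forms of its activator DCP1, and EDC3 and EDC4 are enhancers that hold the complex together. The RNA helicase DDX6, the scaffold PATL1, the LSM1-7 ring that binds the shortened 3′ end, and LSM14A bring the complex to its targets, many of them in cytoplasmic P-bodies, and XRN1 then degrades the uncapped RNA from 5′ to 3′.

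Some facts on the libraries bear on these values. ZNF598 mRNA itself was lower in shZNF598 at 0 h (log2 difference −3.08, SE 0.19, edgeR adjusted p 2.58e-10). At 24 h the gap was narrower, with 5.08 CPM (read counts scaled to library size) in the shControl library and 2.50 in the shZNF598 library, the latter from 84 counts. The 20 libraries of 0-10 h held 52352359 to 96963584 counts. Replicates correlated across transcripts with r of 0.990 to 0.996, except the shControl 0 h pair with 0.978. Changes from 0 h in shControl and differences at 0 h rest on that pair. Of 6 markers set down for the line, VIM, KRT8, KRT18 and NEFM were present (median 124, 12.3, 12.2 and 1.23 CPM) and the kidney progenitor factors PAX2 and LHX1 were near 0 (0.036 and 0.14 CPM). Of 8 markers of blood, liver and fibroblasts, CD3E had no count in any library, PTPRC, ALB, APOA1 and DCN had at most 3 counts, and COL1A1, COL3A1 and HBA1 had medians of 1.01, 0.43 and 0.13 CPM.

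The transcripts differ in their 3′ UTRs, the part that carries most known decay elements. The 3′ UTR of DCP2 is 8711 nt long, longer than in 98.2% of 10157 expressed coding genes (median 1339 nt), and those of XRN1 (4904 nt), DDX6 (4342 nt) and DCP1A (4151 nt) follow. At the other end stand EDC4 (351 nt), LSM1 (331 nt) and DCP1B (153 nt). The motif TGTANATA, which Pumilio proteins bind to promote decay, was searched on the sense strand of these 3′ UTRs. It occurs in 30.4% of all 10157 (median shControl slope −0.09 log2 per hour with it and −0.04 without it, median length 2662 and 915 nt) and in 5 of the 10 genes. Of these, DDX6, PATL1, LSM14A and LSM1 were lost faster than the bulk of the library and DCP2 was not called. Of the members without it, DCP1B, EDC3 and DCP1A were also lost faster than the bulk, and XRN1 and EDC4 rose relative to it. The matches of DCP2, DDX6, PATL1 and LSM14A are shown, and all 7 carry the same 8 letters. How often matches in other genes carry these letters was not counted. LSM1 has 1 match (not printed here) in 331 nt, a length at which 9.06% of 3′ UTRs hold at least 1. At the lengths of DCP2, DDX6, LSM14A and PATL1 that share was 77.2%, 55.9%, 35.1% and 32.1%. For the members without a match it was 59.6% (XRN1), 54.8% (DCP1A), 36.9% (EDC3), 8.56% (EDC4) and 3.99% (DCP1B). Capitals mark the motif, and the sequence is that of the transcript strand (GRCh38).
DCP2, chr5:113014316-113014339, plus strand, 840 nt after the stop codon: tccagttgTGTAAATAtgtatgga
DCP2, chr5:113020795-113020818, plus strand, 7319 nt after the stop codon: ctttttgaTGTAAATAataggtta
DDX6, chr11:118751374-118751397, minus strand, 716 nt after the stop codon: atccgcacTGTAAATAcatgtatt
DDX6, chr11:118751097-118751120, minus strand, 993 nt after the stop codon: tataacttTGTAAATAagtttttt
PATL1, chr11:59636731-59636754, minus strand, 1644 nt after the stop codon: tagggtatTGTAAATAaaaacaaa
LSM14A, chr19:34228336-34228359, plus strand, 1013 nt after the stop codon: tatacaaaTGTAAATAatcacaga
LSM14A, chr19:34229098-34229121, plus strand, 1775 nt after the stop codon: aagaaaacTGTAAATActagttct

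At the end of labelling the helicase mRNA stood well above the rest. Levels between genes are compared per length of transcript, as CPM per kilobase (CPM/kb, mean ± SD, n = 2). In shControl at 0 h, DDX6 had 16.7 ± 4.3 CPM/kb and XRN1, the lowest, had 0.98 ± 0.34. The other 8 lay between, in the order LSM1 (7.98 ± 0.01), EDC4 (6.87 ± 0.13), LSM14A (6.20 ± 0.25), DCP2 (5.33 ± 0.67), EDC3 (4.53 ± 0.64), DCP1A (4.28 ± 0.72), PATL1 (4.05 ± 0.73) and DCP1B (2.23 ± 0.12). DCP2, EDC3, DCP1A and PATL1 each overlapped their neighbour in this order, so their order is not resolved. DCP1A thus stood above its paralogue DCP1B. In shZNF598 the order was the same but for LSM14A and EDC4, which overlapped there, and DCP1A and EDC3.

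During the chase the factors parted. Levels are CPM after TMM scaling, which puts the bulk of every library on 1 common level. An mRNA lost as fast as the bulk thus has a slope of 0, and a positive slope is a rise relative to the bulk. Whether such a rise was slower loss or a gain of labelled RNA was not tested. The TMM factors fell with the chase, from 1.17 and 1.15 at 0 h to 0.74 and 0.72 at 10 h in shControl. In shZNF598 they fell from 1.13 and 1.12 to 0.75 and 0.74. From 0 to 10 h a plain share of library counts therefore falls more, or rises less, than the level given here. In shControl, 7 of the 10 fell relative to the bulk over 0-10 h (DCP1B, EDC3, DDX6, DCP1A, LSM1, PATL1 and LSM14A), 2 rose (XRN1 and EDC4) and DCP2 was not called, by edgeR's quasi-likelihood test with Benjamini-Hochberg adjustment at 0.05 over 79513 transcripts. Slopes are common in these data. Of all transcripts tested, 40.8% were called lower and 33.5% higher in shControl. The median slope of the 10 was −0.14 log2 per hour against −0.02 for all transcripts, which include every biotype and isoforms that share reads. With 1 row per gene the median of all was −0.03. Among the 10157 expressed coding genes at 1 row each it was −0.09 with the Pumilio motif and −0.04 without it. In shZNF598 the counts were again 7 lower and 2 higher, against 38.5% and 32.7% of all transcripts, with a median of −0.11 against −0.01. With 1 row per gene the median of all in that arm was −0.02.

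**Figure D1:**
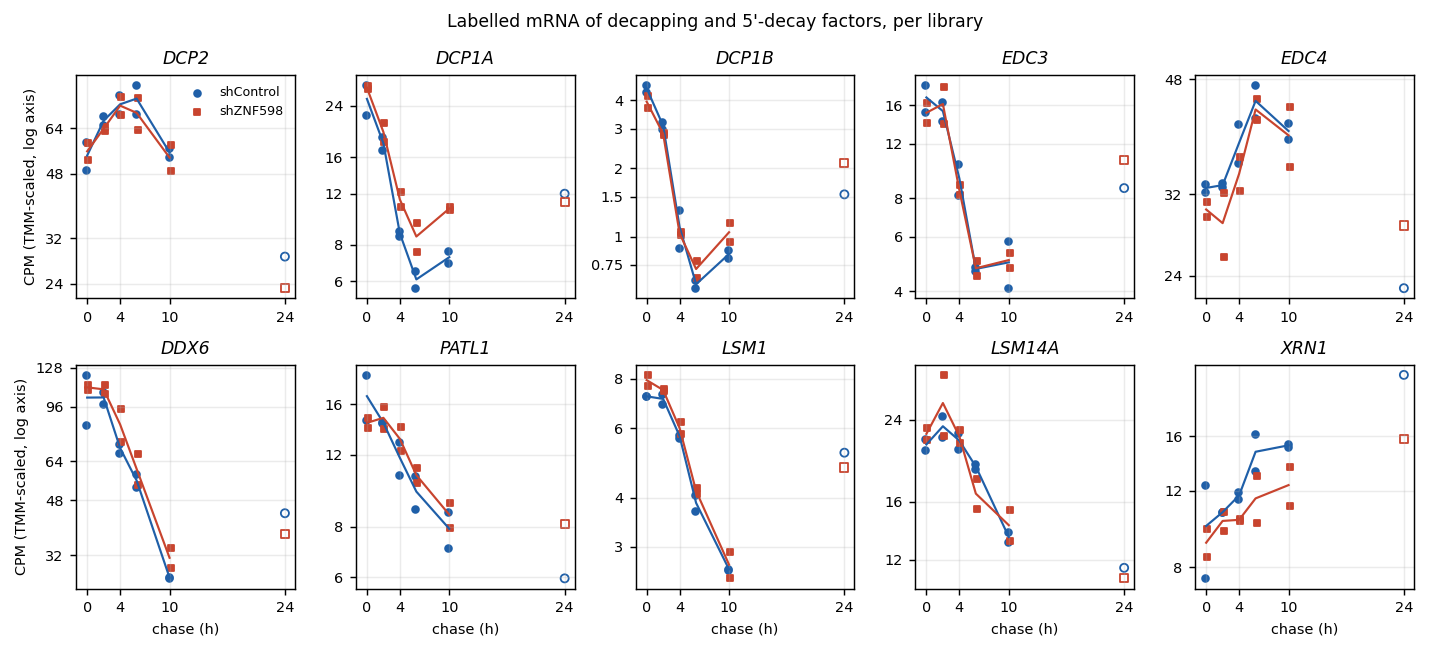
Labelled mRNA of the 10 factors by chase time. Each panel plots CPM (TMM-scaled, log axis) against hours of chase, blue circles for shControl and red squares for shZNF598, filled for 0-10 h with a line through the means of 2 libraries and open for the single 24 h library of each arm. The means of DCP1A, DCP1B and EDC3 are lowest at 6 h, DDX6 and LSM1 go on falling to 10 h, and DCP2 is highest at 4 to 6 h.

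The catalytic subunit DCP2 (ENST00000389063.3, chromosome 5, 112976798 to 113022195, plus strand, 10110 nt) had a level that rose and then fell. In shControl its 2 libraries stood at 58.7 and 49.1 CPM at 0 h, 69.2 and 65.2 at 2 h, 69.9 and 79.1 at 4 h, 84.3 and 70.1 at 6 h, and 53.4 and 56.5 at 10 h. In shZNF598 they stood at 52.5 and 58.2, 63.1 and 64.6, 78.0 and 69.7, 77.7 and 63.4, and 57.6 and 48.8 CPM at the same times. Every library of 2, 4 and 6 h was above every library of 0 and 10 h, and the arms overlapped at 4 of 5 times. A straight line over 0-10 h therefore gave a slope near 0 in shControl (0.00, SE 0.02, adjusted p 0.956) and in shZNF598 (−0.01, SE 0.02, adjusted p 0.802). Over 0-4 h alone the slope was 0.11 (SE 0.03, adjusted p 0.00659) in shControl and 0.11 (SE 0.03, adjusted p 0.00769) in shZNF598, past the threshold in both. Without the 0 h libraries it was −0.05 (SE 0.02, adjusted p 0.0694) in shControl. The 24 h libraries were lower than any of 0-10 h, at 28.5 CPM in shControl and 23.3 in shZNF598. The 3 genes whose log2 CPM followed DCP2 most closely over the 20 libraries, among 13421 genes, were SLC35F5, SLC12A2 and ZMPSTE24 (Pearson r 0.948, 0.931 and 0.931). These libraries share chase times, so such values are a description.

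The paralogous activators were among the fastest to be lost. DCP1B (ENST00000280665.11, chromosome 12, 1946053 to 2004457, minus strand) had 4.69 and 4.36 CPM in shControl at 0 h, 3.20 and 2.98 at 2 h, 0.89 and 1.31 at 4 h, 0.64 and 0.59 at 6 h, and 0.80 and 0.87 at 10 h. Its slope of −0.28 log2 per hour (SE 0.05, adjusted p 4.37e-05) stood at percentile 0.473 of all transcripts. Between 0 and 6 h it fell by 2.87 on the log2 scale (SE 0.19) in shControl and by 2.44 (SE 0.18) in shZNF598. DCP1A (ENST00000610213.6, chromosome 3, 53283429 to 53347543, minus strand) had 28.4 and 22.4 CPM in shControl at 0 h, 17.0 and 18.8 at 2 h, 8.90 and 8.61 at 4 h, 6.50 and 5.68 at 6 h, and 7.62 and 6.91 at 10 h. It fell by 2.05 on the log2 scale (SE 0.14) by 6 h, with a 0-10 h slope of −0.19 (SE 0.03, adjusted p 3.96e-05). Both activator mRNAs stopped falling relative to the bulk after 6 h, since every 10 h library lay above every 6 h library of its arm. Whether their absolute amounts stopped falling cannot be read from relative levels. DCP1B rested on 29 to 70 counts in its 6 h and 10 h libraries.

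Of the enhancers, EDC3 went with the activators and EDC4 did not. EDC3 (ENST00000315127.9, chromosome 15, 74630558 to 74696024, minus strand) had 18.6 and 15.3 CPM in shControl at 0 h, 14.2 and 16.4 at 2 h, 10.3 and 8.20 at 4 h, 4.79 and 4.67 at 6 h, and 5.83 and 4.09 at 10 h. Its slope was −0.20 (SE 0.03, adjusted p 1.16e-05) in shControl and −0.19 (SE 0.03, adjusted p 2.59e-05) in shZNF598. EDC4 (ENST00000358933.10, chromosome 16, 67873052 to 67884499, plus strand), the scaffold of the complex, had 32.3 and 33.2 CPM in shControl at 0 h, 32.8 and 33.3 at 2 h, 41.0 and 35.7 at 4 h, 41.9 and 47.1 at 6 h, and 41.1 and 38.9 at 10 h. All shControl libraries of 4, 6 and 10 h were above those of 0 and 2 h, and the slope was 0.04 (SE 0.02, adjusted p 0.0333) in shControl and 0.05 (SE 0.02, adjusted p 0.00552) in shZNF598. The shControl call was lost in 6 of 22 fits with libraries left out (adjusted p up to 0.266), among them without either replicate of shControl 0 h or of 2 h, and the shZNF598 call was lost without replicate 2 (0.03, adjusted p 0.194). In the EDC4 row, 26.2% of the bases also lie in exons of an lncRNA on the same strand, and in the EDC3 row 9.94% lie in exons of CLK3 on the opposite strand. Reads from those stretches cannot be assigned with the counting as described.

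Among the factors that bring the complex to mRNAs, the fall of DDX6 and LSM1 was late and steady. DDX6 (ENST00000534980.7, chromosome 11, 118747763 to 118791164, minus strand) had 121 and 83.9 CPM in shControl at 0 h, 98.2 and 107 at 2 h, 73.0 and 68.3 at 4 h, 58.3 and 52.9 at 6 h, and 27.0 and 27.3 at 10 h. In shZNF598 it had 109 and 112, 106 and 112, 94.5 and 73.7, 67.6 and 53.6, and 33.7 and 29.2 CPM. Its 0 h and 2 h libraries overlapped in both arms, and the loss came afterwards. By 10 h it had changed by −1.92 on the log2 scale (SE 0.15) in shControl and by −1.81 (SE 0.15) in shZNF598. LSM1 (ENST00000311351.9, 906 nt), the subunit that makes the LSM1-7 ring cytoplasmic, had 7.22 and 7.23 CPM in shControl at 0 h, 6.91 and 7.33 at 2 h, 5.68 and 5.78 at 4 h, 4.07 and 3.69 at 6 h, and 2.62 and 2.63 at 10 h. Its slope was −0.16 (SE 0.02, adjusted p 8.7e-09) in shControl and −0.17 (SE 0.02, adjusted p 7.93e-09) in shZNF598. For LSM1, 47.9% of the row's bases lie opposite exons of an antisense lncRNA, and whether counting used strand is not given in the sources used here, so reads of both cannot be told apart.

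PATL1 and LSM14A were lost more slowly. PATL1 (ENST00000300146.10, chromosome 11, 59636716 to 59669037, minus strand) had 18.9 and 14.6 CPM in shControl at 0 h, 14.4 and 14.4 at 2 h, 12.9 and 10.7 at 4 h, 10.7 and 8.84 at 6 h, and 8.70 and 7.09 at 10 h, with a slope of −0.11 (SE 0.01, adjusted p 5.93e-07) in that arm. LSM14A (ENST00000433627.9, chromosome 19, 34172568 to 34229288, plus strand) had 21.8 and 20.6 CPM at 0 h, 24.4 and 22.1 at 2 h, 22.5 and 20.8 at 4 h, 18.7 and 19.3 at 6 h, and 13.1 and 13.7 at 10 h in shControl. Its level held over the first 4 h and then declined, with a 0-10 h slope of −0.07 (SE 0.02, adjusted p 0.000885) and a 0-4 h slope of 0.00 (SE 0.04, adjusted p 0.986). The 0-10 h call was lost without replicate 1 (−0.06, adjusted p 0.0959), and over 0-6 h the slope was −0.03 (adjusted p 0.359).

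The exonuclease mRNA moved the other way. XRN1 (ENST00000264951.8, chromosome 3, 142306607 to 142448062, minus strand) had 12.4 and 7.55 CPM in shControl at 0 h, 10.7 and 10.7 at 2 h, 11.5 and 11.9 at 4 h, 16.2 and 13.3 at 6 h, and 15.1 and 15.4 at 10 h. In shZNF598 it had 8.44 and 9.78, 9.70 and 10.7, 10.3 and 10.2, 12.9 and 10.1, and 13.6 and 11.1 CPM. The slope was 0.07 (SE 0.02, adjusted p 0.000856) in shControl and 0.04 (SE 0.02, adjusted p 0.0245) in shZNF598, and with libraries left out the call was lost in 1 of 22 fits in shControl (0.05 without replicate 2, adjusted p 0.0777) and in 3 of 22 in shZNF598. MYO6 and PBRM1 were among the genes that followed its log2 CPM most closely over the 20 libraries (Pearson r 0.925 and 0.918).

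**Figure D2:**
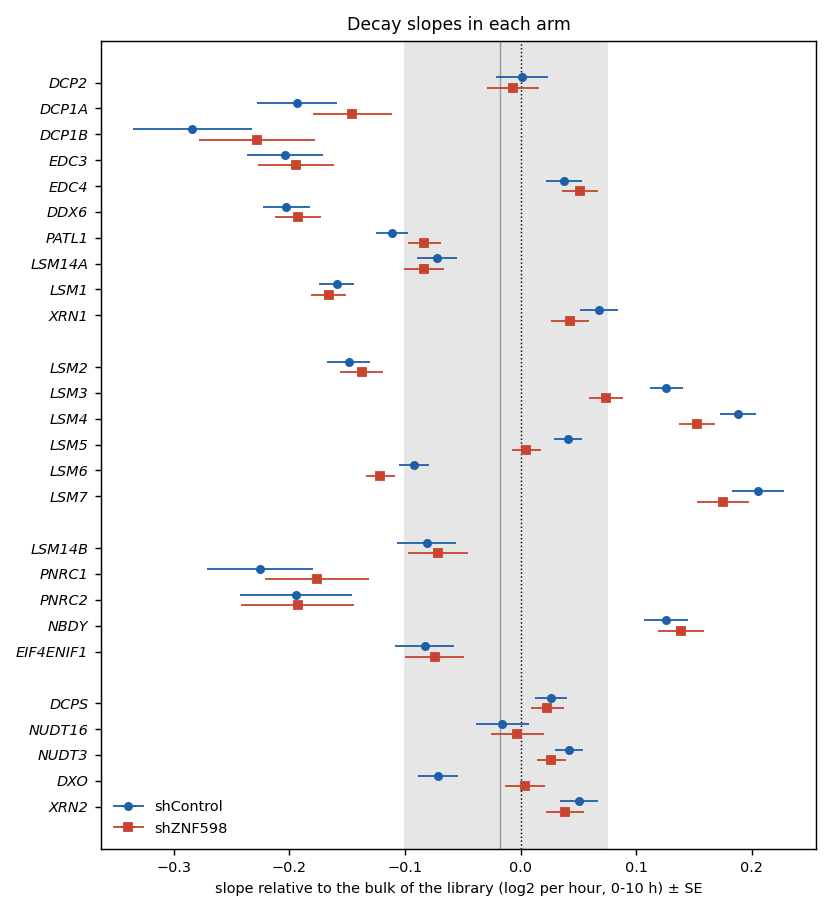
Slopes of log2 level on chase time over 0-10 h, relative to the bulk of the library, for the 10 factors (top block), LSM2 to LSM7, partners of decapping factors, and other cap and 5′ enzymes (lower blocks). Points are slopes in log2 per hour with bars of 1 SE, blue circles for shControl and red squares for shZNF598, over a grey band from the lower to the upper quartile of all transcripts in shControl (−0.10 to 0.07) and a line at their median. DCP1B lies lowest at −0.28, while LSM7 lies highest at 0.21, both in shControl.

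Isoforms of a gene behaved alike. The 10 genes had 90 rows, of which 70 were tested. Reads shared by isoforms were counted in each (the first and second DDX6 rows averaged 5433.9 and 5433.6 counts), so these rows are not independent. In shControl 43 of the 70 were called lower and 11 higher, and no gene had rows called in both directions. All 6 rows of DCP1A lay between −0.19 and −0.15 log2 per hour, all 14 of EDC4 between 0.03 and 0.07 and all 7 of DCP2 between −0.03 and 0.01, none of the last called. EDC3 varied most, from −0.24 to −0.10 over 12 rows, all called lower.

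**Figure D3:**
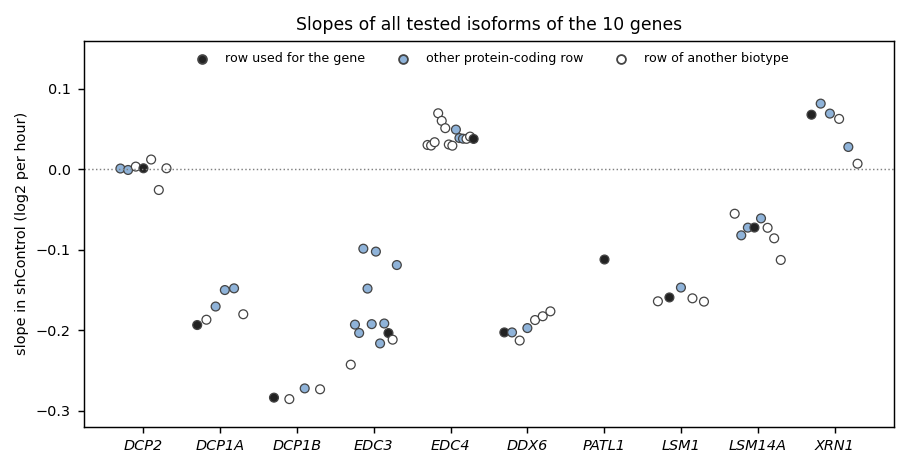
Slopes in shControl (log2 per hour, 0-10 h) of the 70 tested isoform rows of the 10 genes. Each point is a row, black for the row used for the gene, blue for other protein-coding rows and white for rows of another biotype. The rows of a gene lie on the same side of 0 for every gene but DCP2, whose rows lie between −0.03 and 0.01.

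The rest of the pathway was examined by gene lists, each gene by the same row rule. Their slope calls stand beside 40.8% of all transcripts called lower and 33.5% higher in shControl. LSM2 to LSM7, which complete the ring with LSM1, split in direction. In shControl 4 of the 6 were called higher, led by LSM7 (0.21, SE 0.02), LSM4 (0.19, SE 0.02) and LSM3 (0.13, SE 0.01), and 2 lower, LSM2 (−0.15, SE 0.02) and LSM6 (−0.09, SE 0.01), with a median of 0.08. Their counts in shZNF598 were 3 and 2. The same proteins also form the nuclear ring with LSM8.

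Of the partners of decapping factors, 5 of 6 were tested, and PATL2 was too low. In shControl 4 were called lower, PNRC1 (−0.23, SE 0.05), PNRC2 (−0.19, SE 0.05), EIF4ENIF1 (−0.08, SE 0.03) and LSM14B (−0.08, SE 0.03), and 1 higher, NBDY (0.13, SE 0.02), a microprotein that binds EDC4. PNRC1 and PNRC2 are coactivators of decapping. Of 5 other enzymes of the cap or 5′ end, the nuclear exonuclease XRN2 (0.05, SE 0.02) and the hydrolase NUDT3 (0.04, SE 0.01) were called higher and the decapping exonuclease DXO lower (−0.07, SE 0.02) in shControl. DCPS, the scavenger decapping enzyme (0.03, SE 0.01, adjusted p 0.0891), and NUDT16 (−0.02, SE 0.02, adjusted p 0.536) were not called. Of 15 exosome and SKI genes of the 3′ route, 5 were called higher and 5 lower in shControl, with a median of −0.02, close to that of all transcripts. SKIC3 (0.20, SE 0.01), EXOSC5 (0.16, SE 0.02) and SKIC2 (0.14, SE 0.01) lay highest and EXOSC2 lowest (−0.21, SE 0.02).

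The study asked whether loss of ZNF598 alters mRNA decay. None of the 10 factors had a slope that differed between the arms, against 0.116% of all transcripts called (edgeR, adjusted p below 0.05), and none had an unadjusted p below 0.05 (DESeq2 also called none, with an adjusted p for 8 of the 10). The differences, shZNF598 minus shControl, ran from −0.03 log2 per hour in XRN1 (SE 0.02) to 0.06 in DCP1B (SE 0.07), and 6 of 10 were above 0. SEs of 0.02 to 0.07, which include departures from a straight line, set what could be seen. With the linear trend of the group means, which leaves such departures out, 0 of the 10 were called and 586 of all 79513 transcripts (edgeR). The differences of the members that fell fastest were 0.05 (SE 0.05) for DCP1A, 0.01 (SE 0.05) for EDC3 and 0.01 (SE 0.03) for DDX6. In the other lists no difference was called either, and the largest was that of DXO (0.08, SE 0.02, unadjusted p 0.00529, adjusted p 0.463).

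Levels at 0 h did not separate the arms either. None of the 10 was called, nor had an unadjusted p below 0.05 (edgeR; DESeq2 called none), against 0.407% of all transcripts. Differences ran from −0.22 (SE 0.14) in PATL1 to 0.14 (SE 0.11) in LSM1. The PATL1 value was −0.02 without shControl 0 h replicate 1 and −0.39 without replicate 2, and that of EDC3 (−0.16) was −0.01 and −0.30. For DDX6 the difference was 0.40 without shControl 0 h replicate 1 and −0.13 without replicate 2, and for XRN1 it was 0.27 and −0.44, so these values turn on 1 library. In bulk RNA, fewer labelled cells with a transcript and less of it per cell cannot be told apart.

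Averaged over 0-10 h, 1 of the 10 factors was higher in shZNF598, DCP1A, and 1 was lower, XRN1, against 12.3% and 10.1% of all transcripts. A count of 1 in each direction is near that background. DCP1A in shZNF598 had 27.4 and 28.0 CPM at 0 h, 18.0 and 21.0 at 2 h, 12.1 and 10.8 at 4 h, 9.51 and 7.59 at 6 h, and 10.5 and 10.8 at 10 h. Both shZNF598 libraries were above both shControl libraries at 4, 6 and 10 h, and the arms overlapped at 0 and 2 h. At 24 h the single libraries stood the other way, at 11.99 CPM in shControl and 11.26 in shZNF598. How many of all transcripts have both libraries of an arm above both of the other was not counted. Such orders, here and below, are descriptions. The mean difference was 0.34 on the log2 scale (SE 0.06, 1.26-fold, adjusted p 0.000207) and lay between 0.28 and 0.37 in 22 fits with libraries left out, with an adjusted p of 0.0233 at most. By time it was 0.13 at 0 h, 0.13 at 2 h, 0.39 at 4 h, 0.48 at 6 h and 0.55 at 10 h (SE 0.13 to 0.14), and of these only that at 10 h passed the threshold (adjusted p 0.0242), the 1 call among the 10 factors against 3.23% of all transcripts at that time. Of the 6 DCP1A rows, 4 were called higher in the mean, but isoform rows share reads and are not independent. Its slope difference over the same hours was not called, so a widening of the gap is not shown.

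XRN1 was lower in shZNF598 by a smaller margin, with a mean difference of −0.21 (SE 0.07, adjusted p 0.043). Both shControl libraries were above both shZNF598 libraries at 4, 6 and 10 h. The call was lost in 15 of 22 fits with libraries left out, and without shControl 0 h replicate 1 the difference was −0.13 (SE 0.06, adjusted p 0.105). DDX6 stood at 0.16 (SE 0.06, adjusted p 0.0755) and was called without the 0 h libraries (0.16, SE 0.06, adjusted p 0.0486). It was also called without a filter on low counts (0.17, SE 0.05, edgeR adjusted p 0.0116). With libraries left out its difference ran from 0.11 to 0.22, so its call too depends on the setting. LSM1 was above in both shZNF598 libraries at 0, 2, 4 and 6 h, but its mean difference of 0.08 was not called (SE 0.05, edgeR adjusted p 0.269). The remaining 6 lay between −0.11 (EDC4, SE 0.05) and 0.05 (PATL1, SE 0.06), with none called.

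Among the partners, the LSM14A paralogue LSM14B was lower in shZNF598 (mean difference −0.31, SE 0.05, adjusted p 0.000207) and PNRC1 higher (0.29, SE 0.07, adjusted p 0.00298). No gene of LSM2 to LSM7 and none of the 5 other enzymes was called in the mean level, and none had an unadjusted p below 0.05. Of the 15 exosome and SKI genes, EXOSC10 was higher (0.15, SE 0.04, adjusted p 0.0145), and SKIC2 (−0.19, SE 0.06, adjusted p 0.0217) and SKIC3 (−0.15, SE 0.05, adjusted p 0.0454) were lower. That is 1 higher and 1 lower of 5 tested partners, and 1 higher and 2 lower of 15. Of all transcripts, 12.3% were called higher and 10.1% lower. Counts this small are not read as a result about the lists.

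**Figure D4:**
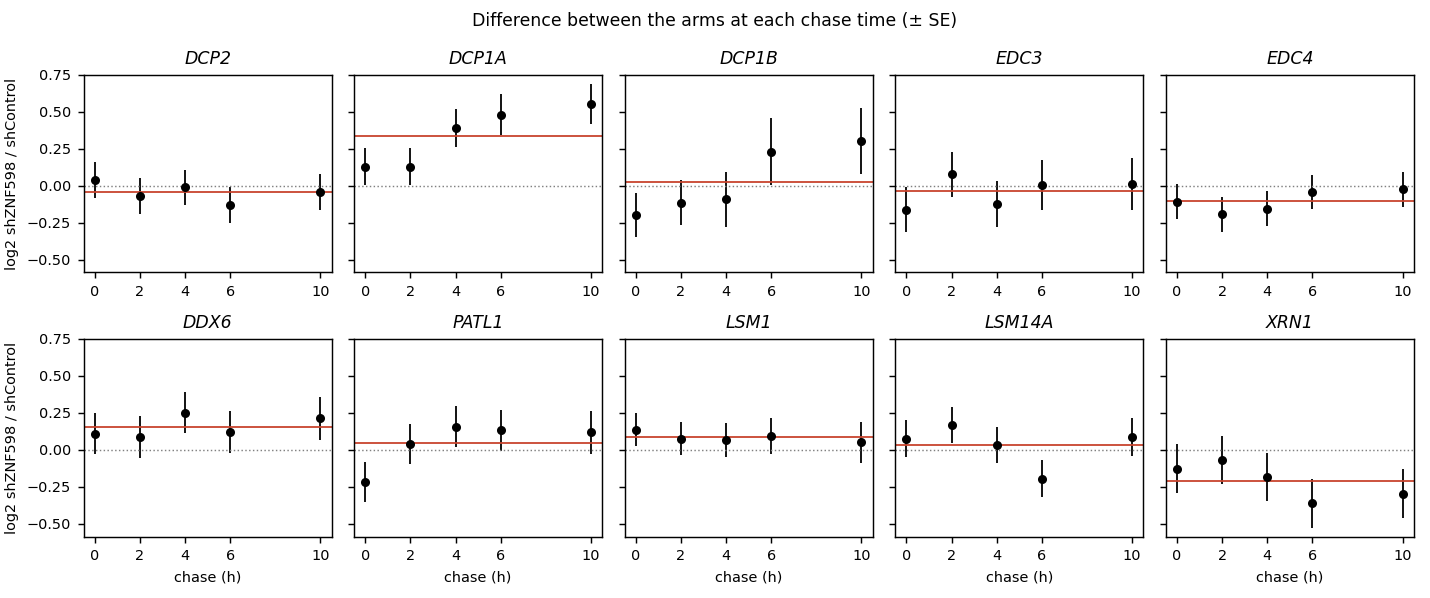
Difference in level between the arms (log2 shZNF598 over shControl) at each chase time for the 10 factors. Black points are single-time differences with bars of 1 SE from the model with 1 mean per group (2 libraries each), the red line is the mean over 0-10 h and the dotted line is 0. DCP1A goes from 0.13 at 0 h to 0.55 at 10 h, and XRN1 lies below 0 at all 5 times.

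Apparent half-lives were computed by the rule of the study, without its spike-in factor, so that they are relative to the library and carry no test. A line was fitted to log2 change against hours over 0-4, 0-6, 0-10 or 0-24 h, the window with the highest R2 was kept, and R2 above 0.9 with a half-life of 0 to 24 h was taken as reliable. This held in both arms for 4 of 10 factors, against 18.9% of all transcripts. The values in shControl and shZNF598 were 2.01 and 2.31 h for DCP1B, 2.84 and 3.50 h for DCP1A, 5.33 and 5.53 h for DDX6, and 6.89 and 6.48 h for LSM1. The medians of all reliable transcripts were 4.84 and 5.05 h. EDC3 (3.28 h) and PATL1 (8.12 h) passed in shControl alone, and DCP2, EDC4, XRN1 and LSM14A in neither arm. For the activators the window with the best line ended at 6 h and for DDX6 and LSM1 at 10 h. The activators' values depend on that choice. Over a fixed window of 0-10 h they were 3.88 and 4.85 h for DCP1B and 5.52 and 7.33 h for DCP1A. R2 was then 0.59 to 0.68, below the limit, and DCP1A no longer had a shorter value than DDX6.

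Matches to AU-rich elements and codon composition were counted as a description. The AU-rich pentamer ATTTA (sense strand, overlapping matches counted) occurs in 73.6% of the 10157 3′ UTRs, and those with it had a median shControl slope of −0.08 against 0.01 without it, but also a median length of 1899 nt against 371 nt. Of the 7 members called lower, DCP1A holds 10 matches, DDX6 9, PATL1 4, LSM14A 3 and LSM1 1, and DCP1B and EDC3 hold none. Of the other 3, DCP2 holds 28, XRN1 14 and EDC4 none. The 3′ UTR of EDC3 has 2054 nt, a length at which 91.0% of 3′ UTRs hold at least 1. The longer AU-rich element TTATTTATT, in 9.32% of all, occurs in none of the 10. GC at the last position of codons ran from 32.5% in XRN1 (percentile 4.58 of the 10157 genes) to 67.8% in EDC4 (percentile 69.3), the 2 members called higher in slope. Such matches are descriptions of the sequence, not sites shown to act.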

How the data were processed

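The submitters' processing notes name CASAVA 1.8 and STAR 2.7.0a. By the methods, fastp trimmed the reads, those of noncoding RNA were set aside, and the remainder was mapped with STAR to hg38 (GENCODE release 32, 1 mismatch, 1 locus). The authors then ran featureCounts on transcripts and deposited raw counts for 227264 transcripts in 22 libraries, beside a transcript length in codons that was used only to check identity. The strand setting of the counting is not given in the sources used here. The study's spike-in factor was not used here, so slopes are relative to the bulk of the library.

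Identifiers were named with GENCODE release 44 on GRCh38 (92.2% matched with version, 98.4% without), and lengths were equal for all 209601 version-matched rows. The 79513 transcripts averaging 1 CPM or more in the 20 libraries up to 10 h were fitted with edgeR 4.0.16 in R 4.3.3 (TMM scaling, quasi-likelihood test, Benjamini-Hochberg over all rows). A model of hairpin, hours and their product gave slopes, and a model with 1 mean per group gave levels. SEs are log2 estimates divided by the root of F. At 24 h, with 1 library per arm, data entered half-lives and the 0-24 h window, and otherwise served as a description without a test. DESeq2 1.42.0 gave the changes for half-lives and an alternative test. Motifs were searched in GENCODE transcripts with Python 3.11.15, and neighbouring lengths are within 25%. The functions were tested on simulated data.

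The genes named are the 10 factors, ZNF598, members of 4 pathway lists that were called (at most 3 per direction, with the highest and lowest of the smaller lists) and the 3 genes most like DCP2 and XRN1, of which 1 is not reported here; genes not called that are given with values were added after their values were seen. Members, lists and tests were chosen with earlier results of these data known. Deviations of same-numbered libraries of the arms correlated above 0.1 at 3 of 5 times (−0.247 to 0.366), not at all, and the labels give no shared source, so the samples were not treated as paired.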

Additional observations from a re-analysis of the deposited data

Results flagged for a closer look

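DCP1B was picked from the 10 factors because the order of its libraries between the arms was opposite at 0 h and 10 h. Both shControl libraries were above both shZNF598 libraries at 0 h (4.69 and 4.36 against 3.71 and 4.19 CPM) and below them at 10 h (0.80 and 0.87 against 0.94 and 1.15 CPM), so the difference was −0.20 on the log2 scale (SE 0.15) at 0 h and 0.30 (SE 0.22) at 10 h. Neither difference was called (edgeR adjusted p 0.698 at 0 h and 0.525 at 10 h). The change between these 2 times was not tested as such, and how many of all transcripts show such a change of order was not counted. The slope difference over all 5 times was 0.06 log2 per hour (SE 0.07, edgeR unadjusted p 0.446, adjusted p 1), and it ran from 0.00 without shZNF598 10 h replicate 2 to 0.11 without shControl 10 h replicate 2.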

How the results depend on the processing

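The members' counts kept within 1.5 times under most settings. The 7 lower and 2 higher slopes in both arms were also found with RLE scaling and without a filter on low counts. The same held with 1 row per gene, with the linear trend of group means and with DESeq2. Without the filter the mean level gave 3 calls, with DDX6 added (0.17, edgeR adjusted p 0.0116). With the replicate block the counts were again 9 and 9 for slopes, 0 for the slope difference and for 0 h, and 3 for the mean level, which added DDX6 (0.16, adjusted p 0.0439); the block changed no other call. In shZNF598 5 slopes were called over 0-4 h, and over 0-24 h 5 in each arm, where DCP1A (−0.05 and −0.05 log2 per hour in shControl and shZNF598), DCP1B (−0.09 and −0.04), EDC3 (−0.05 and −0.03), LSM1 (−0.04 and −0.04) and EDC4 were not called (adjusted p of the first 4 from 0.117 to 0.411) and DCP2 was called lower (−0.05 and −0.06, adjusted p 0.0361 and 0.0135). The mean level gave 1 call, DCP1A, with a minimum of 5 CPM and with the next isoform (PATL1 has none), where XRN1 had an adjusted p of 0.0503 and 0.134. Taken singly, a choice made after seeing the data, 0, 2, 4 and 6 h gave 0 calls each and 10 h gave 1. Half-lives passed in both arms for 2 factors with a fixed window of 0-10 h and for 2 with one of 0-4 h. With libraries left out the mean level gave 1 to 2 calls, the slopes 7 to 9 in shControl and 8 to 9 in shZNF598. At 5 CPM, which dropped DCP1B, EDC4 was called in neither arm (0.01 and 0.03 log2 per hour) and XRN1 lost its shZNF598 call (0.02). The sign of the DCP2 slope in shControl turned at 5 CPM (−0.0255), over 0-24 h (−0.0478) and over 2-10 h (−0.0469), and in shZNF598 with RLE (0.0028), 1 row per gene (4e-04), 0-4 h (0.1076), 0-6 h (0.0643) and DESeq2 (0.0028). Other signs that turned were those of the LSM14A slope in shControl over 0-4 h (0.0011), the EDC4 slope in shControl over 0-24 h (−0.0181), and the slope differences of EDC4 over 0-4 h (−0.0024), DCP1A and DDX6 over 0-24 h (−0.0052 and −0.0137) and EDC3 over 2-10 h (−0.0046). At single times the level differences of uncalled factors turned for DCP1B at 0, 2 and 4 h (−0.1959, −0.1168 and −0.0925), DCP2 (0.0383) and PATL1 (−0.2172) at 0 h, EDC3 at 2, 6 and 10 h (0.0763, 0.0022 and 0.0136) and LSM14A at 6 h (−0.1945). The cause was not tested.

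With libraries left out, values that crossed 0 ranged as follows. Slopes of DCP2 ran from −0.019 to 0.025 in shControl and from −0.0286 to 0.0181 in shZNF598. Slope differences ran from −0.0393 to 0.0216 for DCP2, −0.0163 to 0.0532 for EDC3, −0.0082 to 0.034 for EDC4, −0.0222 to 0.0399 for DDX6, −0.0812 to 0.0252 for XRN1, −0.0183 to 0.0035 for LSM1 and −0.0429 to 0.0195 for LSM14A. Differences at 0 h ran from −0.0353 to 0.3092 for DCP1A, −0.0849 to 0.1723 for DCP2, −0.1333 to 0.3998 for DDX6 and −0.4407 to 0.2716 for XRN1, with both ends set by the shControl 0 h replicates. Mean differences ran from −0.0868 to 0.0847 for DCP1B, −0.141 to 0.0598 for EDC3, −0.0569 to 0.1469 for PATL1 and −0.0132 to 0.0738 for LSM14A. Without all libraries of a replicate number, 1 per group remains: the mean level was then fitted with hairpin and chase time as additive terms, and the level at 0 h, which needs a mean per group, was not run. The SEs of the slope differences, 0.02 to 0.07 log2 per hour, limit which gaps between the arms could be seen. Over all transcripts the slope difference gave 92 calls, but 46 without a filter, 152 at 5 CPM, 10 with 1 row per gene, 22 over 0-6 h, 55 over 2-10 h, 0 over 0-4 h and 0-24 h, 586 with the trend, 579 with DESeq2 and 5 (without replicate 1) to 126 with libraries left out. The level at 0 h gave 324, but 788 without a filter, 212 at 5 CPM, 90 with 1 row per gene, 14 with the 0 h libraries alone, 550 with DESeq2 and, with libraries left out, 49 (without shZNF598 0 h replicate 1) to 1875 (without shControl 0 h replicate 2).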

Other observations

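The 24 h libraries, 1 per arm, allow no test. Relative to the bulk, 6 of the 10 factors stood higher at 24 h than their 10 h mean in both arms and the other 4 lower, against 47.5% and 38.1% of all 79513 transcripts tested. In shControl the ratio of 24 h to 10 h was 1.98 for LSM1, 1.84 for DCP1B, 1.74 for EDC3, 1.65 for DCP1A, 1.61 for DDX6 and 1.45 for XRN1, and in shZNF598 it was 1.77, 2.03, 2.10, 1.06, 1.19 and 1.27. DCP2 (0.52 and 0.44), EDC4 (0.57 and 0.73), PATL1 (0.76 and 0.95) and LSM14A (0.86 and 0.77) went lower. Of the 3 members not called lower over 0-10 h, DCP2 and EDC4 were thus lower at 24 h and XRN1 higher, and of the 7 called lower, PATL1 and LSM14A were lower still. DCP1B rested on 26 and 71 counts there, and the 24 h libraries had the lowest totals, with 21220829 counts in shControl and 40157613 in shZNF598.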
